A study of Mus musculus with 12 samples.

Results

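The latrophilins (*Adgrl1*, *Adgrl2* and *Adgrl3*), the fibronectin leucine-rich transmembrane proteins or FLRTs (*Flrt1*, *Flrt2* and *Flrt3*) and the teneurins (*Tenm1*, *Tenm2*, *Tenm3* and *Tenm4*) were followed in the newborn dorsolateral geniculate nucleus (dLGN), the thalamic nucleus that relays signals from the retina to the visual cortex. These are 10 of the 24480 genes in each expression table, and they were picked by gene symbol. The families were chosen by the decrease of *Adgrl2* in *Sox2* mutants, so values from that comparison, and whether a gene passed the threshold there, are given as a description that supports nothing. That rule did not use *Nr2f1* mutants and their controls, though earlier results of these data were known when the families were chosen.

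Latrophilins are adhesion G protein-coupled receptors, with a large extracellular portion and a membrane part that signals into the cell. Teneurins and FLRTs are membrane proteins that bind latrophilins on the facing cell, and a latrophilin can hold a teneurin and an FLRT at the same time. Such complexes act in axon guidance, neuronal migration and the matching of synaptic partners, and Tenm3 is known for its part in the wiring of the visual pathway. FLRTs also bind Unc5 receptors, through which they can repel axons and migrating neurons.

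RNA was measured at postnatal day 0 in dissected dLGN from 2 conditional mutant lines, with 3 mutant and 3 control libraries in each line and 12 in all. *Sox2* mutants carried Sox2flox/flox;Ror-alphaCre and their controls were Sox2flox/flox or Sox2flox/+ without Cre. *Nr2f1* mutants carried Nr2f1 flox/flox;Ror-alphaCre, whereas their controls are labelled with the same alleles and also as having no Cre. The study describes these controls as Nr2f1flox/flox or Nr2f1flox/+ littermates without Cre. The Cre sits in the *Rora* gene and deletes in postmitotic neurons of the sensory thalamus, so other cells in the dissected tissue keep the gene. Each library pooled 3 animals, and libraries are called below by their deposited names. SOX2 and NR2F1 are transcription factors expressed together in these neurons, and the design asks which genes depend on each of them.

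Libraries held 39293465 to 50095344 counts, given here as CPM, the count scaled to a common library total, after TMM scaling. *Sox2* ranged from 361 to 382 CPM in its controls and from 116 to 152 CPM in its mutants, and *Nr2f1* from 311 to 380 CPM in its controls and from 101 to 151 CPM in its mutants. *Sox2* was also lower in *Nr2f1* mutants, at 212 to 279 CPM against 343 to 374 CPM. *Nr2f1* measured 221 to 313 CPM in *Sox2* mutants and 308 to 345 CPM in their controls, which overlapped. The summed level of 7 markers of thalamic glutamatergic neurons was at least 1577 CPM in every library, but lower in *Sox2* mutants (1577 to 1606 CPM) than in their controls (1687 to 2108 CPM). The separation of these ranges depends on *Rora*, as described below. CTRL_3 of the *Sox2* line stood apart from its group on the first principal component, at -12.2 where CTRL_1 and CTRL_2 lay at -24.6 and -24.1. MUT_B of the *Nr2f1* line lay nearest to the controls, at 3.27 where MUT_A and MUT_C lay at 19.0 and 23.0. The pools also differed in sex, since the X-inactivation transcript *Xist* was under 0.5 CPM in CTRL_2 and MUT_1 of the *Sox2* line and in CTRL_E of the *Nr2f1* line, whereas MUT_A had 1150 CPM of *Xist* and none of the Y-linked *Ddx3y*. *Tenm1* is an X-linked gene.

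In control dLGN, levels compared per kilobase (kb) of the longest RefSeq transcript placed *Adgrl1* first, at 103 ± 6.46 CPM per kb in *Sox2* controls and 106 ± 0.712 CPM per kb in *Nr2f1* controls (SD, n = 3). *Tenm2* and *Tenm3* came next, at 87.0 ± 18.8 and 74.4 ± 17.6 CPM per kb in *Sox2* controls, and 97.8 ± 5.80 and 98.4 ± 10.03 CPM per kb in *Nr2f1* controls. Their library ranges overlapped each other in both lines, and the one ranked higher overlapped with *Adgrl1*. *Adgrl2* followed in both lines, with 47.4 ± 1.33 and 47.4 ± 1.87 CPM per kb. Below it came *Tenm4*, at 30.3 ± 5.29 and 35.0 ± 0.774 CPM per kb, and *Adgrl3*, at 25.8 ± 3.84 and 30.2 ± 2.71 CPM per kb. These last 2 genes overlapped in *Sox2* controls and did not in *Nr2f1* controls.

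*Tenm1* was by far the lowest teneurin, at 4.74 ± 1.48 and 6.94 ± 0.380 CPM per kb. It overlapped with *Flrt2* in *Sox2* controls and lay above it in *Nr2f1* controls. The FLRTs were low: *Flrt2* had 5.75 ± 0.425 and 4.24 ± 0.325 CPM per kb, and *Flrt1* and *Flrt3* stayed between 1.47 and 2.52 CPM per kb in the 6 control libraries, with overlapping ranges in each line. The newborn dLGN thus held latrophilins and *Tenm2*, *Tenm3* and *Tenm4* at a much higher level per length than *Tenm1* and the FLRTs.

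**Figure D1:**
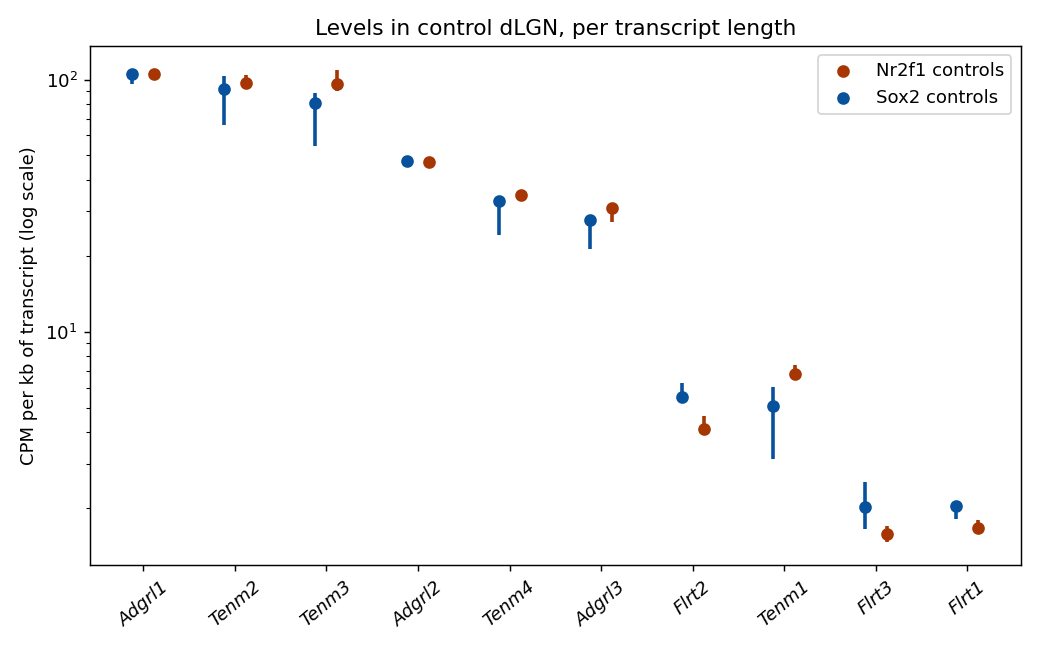
Level of each gene in control libraries, in CPM per kb of transcript on a log scale, with the median (point) and the range of 3 libraries (line) for *Sox2* controls (blue) and *Nr2f1* controls (red-brown). *Adgrl1* leads at a mean of 103 and 106 CPM per kb, and *Flrt1* and *Flrt3* stay below 2.6 CPM per kb.

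The genes lie on separate chromosomes or far apart, and several are very long. In RefSeq on GRCm38.p6, *Adgrl2* spans 174 kb (chr3:148815586-148989096), *Adgrl1* 42 kb (chr8:83900098-83941954), *Adgrl3* 809 kb (chr5:81019085-81827825), *Tenm2* 1230 kb (chr11:36006656-37237053) and *Tenm3* 1297 kb (chr8:48225665-49522824). *Flrt1* (chr19:7087464-7166183), *Flrt2* (chr12:95692006-95785215) and *Flrt3* (chr2:140658198-140671476) span 79, 93 and 13 kb. *Tenm1* (chrX:42527866-43429168) and *Tenm4* (chr7:96171244-96911093) span 901 and 740 kb.

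Because SOX2 and NR2F1 bind DNA, promoter windows were searched for short motifs of their protein families. RefSeq gave 12 windows of 300 bases around annotated starts for 9 of the 10 genes (none for *Flrt1*). The SOX core ACAAAG occurred, on either strand, in the windows of *Adgrl2* and *Flrt2* and in no other window of these genes. This is a description of a few windows: 18.7% of all 32851 windows held ACAAAG. The *Adgrl2* window surrounds a start 34.5 kb inside the outer edge of the gene. The matches are shown 5′ to 3′ on the strand of the gene, with the searched letters in capitals. The stretches lie at chr3:148954648-148954673 on the minus strand (*Adgrl2*) and chr12:95692052-95692077 on the plus strand (*Flrt2*), and the core begins 28 and 164 bases before the start.
Adgrl2: attaaggaatACAAAGaaaatattta
Flrt2: ctgcacgtgaACAAAGcttttgcccg

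The other SOX core searched, ACAATG (12.6% of all windows), and the nuclear receptor element AGGTCA (16.3% of all windows) each occurred among these genes in the *Tenm1* window alone. The stretches lie at chrX:43275015-43275034 and chrX:43274868-43274893 and are shown on the minus strand, that of the gene. The receptor element reads TGACCT there, so AGGTCA itself is on the plus strand. The *Tenm1* window surrounds a start 154 kb inside the outer edge of the gene.
Tenm1 SOX core: atctACAATGccatgggaaa
Tenm1 receptor element: tttgctcagcTGACCTttctgttata

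Among the latrophilins, *Adgrl2* was lower in both mutants, and by more in *Sox2* mutants. It measured 272, 257 and 266 CPM in *Sox2* controls (CTRL_1, CTRL_2 and CTRL_3) and 86.2, 99.5 and 91.7 CPM in *Sox2* mutants (MUT_1, MUT_3 and MUT_4). The groups lay far apart, with the mutant mean at 34.9% of the control mean and a log2 fold change of -1.52 ± 0.07 (SE, n = 3 per group). In *Nr2f1* controls (CTRL_B, CTRL_D and CTRL_E) *Adgrl2* measured 262, 276 and 256 CPM, and in *Nr2f1* mutants (MUT_A, MUT_B and MUT_C) 172, 180 and 181 CPM. Here the mutant mean was 67.1% of the control mean, and the decrease passed the test (log2 fold change -0.58 ± 0.05, edgeR FDR 2.51e-04). Genes with an FDR below 0.01 are called differentially expressed genes (DEG).

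Control levels of *Adgrl2* were nearly the same in both lines, so its order over the groups was controls, *Nr2f1* mutants and *Sox2* mutants, with no overlap between those 3 levels. The *Sox2* change minus the *Nr2f1* change was -0.94 ± 0.08 on the log2 scale. *Adgrl2* was the only one of the 10 genes that was DEG for this difference, where 1.44% of all genes were. As bulk libraries, these cannot tell fewer cells of a type from less RNA per cell.

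*Adgrl3*, the latrophilin whose binding to FLRT3 is best known, measured 192, 169 and 201 CPM in *Nr2f1* controls and 135, 138 and 121 CPM in *Nr2f1* mutants. All mutant libraries lay below all controls, and it was downregulated (log2 fold change -0.51 ± 0.07, edgeR FDR 0.00394). It was no longer DEG when CTRL_B, CTRL_E, MUT_A or MUT_C was left out, with an edgeR FDR of at most 0.0232. In the *Sox2* line the values were 175, 172 and 132 CPM in controls and 110, 128 and 114 CPM in mutants. They did not overlap either, but CTRL_3 lay close to the mutants, and *Adgrl3* was not DEG (log2 fold change -0.45 ± 0.11).

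*Adgrl1*, the highest of these genes per kb, had the smallest fold changes of the latrophilins. It measured 884, 860 and 783 CPM in *Sox2* controls and 710, 706 and 701 CPM in mutants (-0.25 ± 0.07, not DEG). In the *Nr2f1* line it measured 862, 871 and 859 CPM in controls and 790, 788 and 756 CPM in mutants (-0.15 ± 0.05, edgeR FDR 0.077). Mutants lay below controls in both lines, yet the decrease did not pass the test in *Nr2f1* mutants.

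The unequal changes altered the make-up of the latrophilins. Per kb of transcript, *Adgrl2* made up 27.0 ± 1.67% of the latrophilin level in *Sox2* controls and 13.6 ± 0.699% in *Sox2* mutants (SD, n = 3). *Adgrl1* went from 58.4 ± 0.305% to 70.9 ± 1.62%, whereas the share of *Adgrl3* overlapped between the groups, at 14.6 ± 1.40% and 15.5 ± 0.944%. In the *Nr2f1* line the share of *Adgrl2* was 25.9 ± 1.04% in controls and 21.5 ± 0.925% in mutants, and that of *Adgrl1* 57.6 ± 0.430% and 64.2 ± 0.492%. For these shares of *Adgrl1* and *Adgrl2*, the ranges of mutants and controls were separate in each line.

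**Figure D2:**
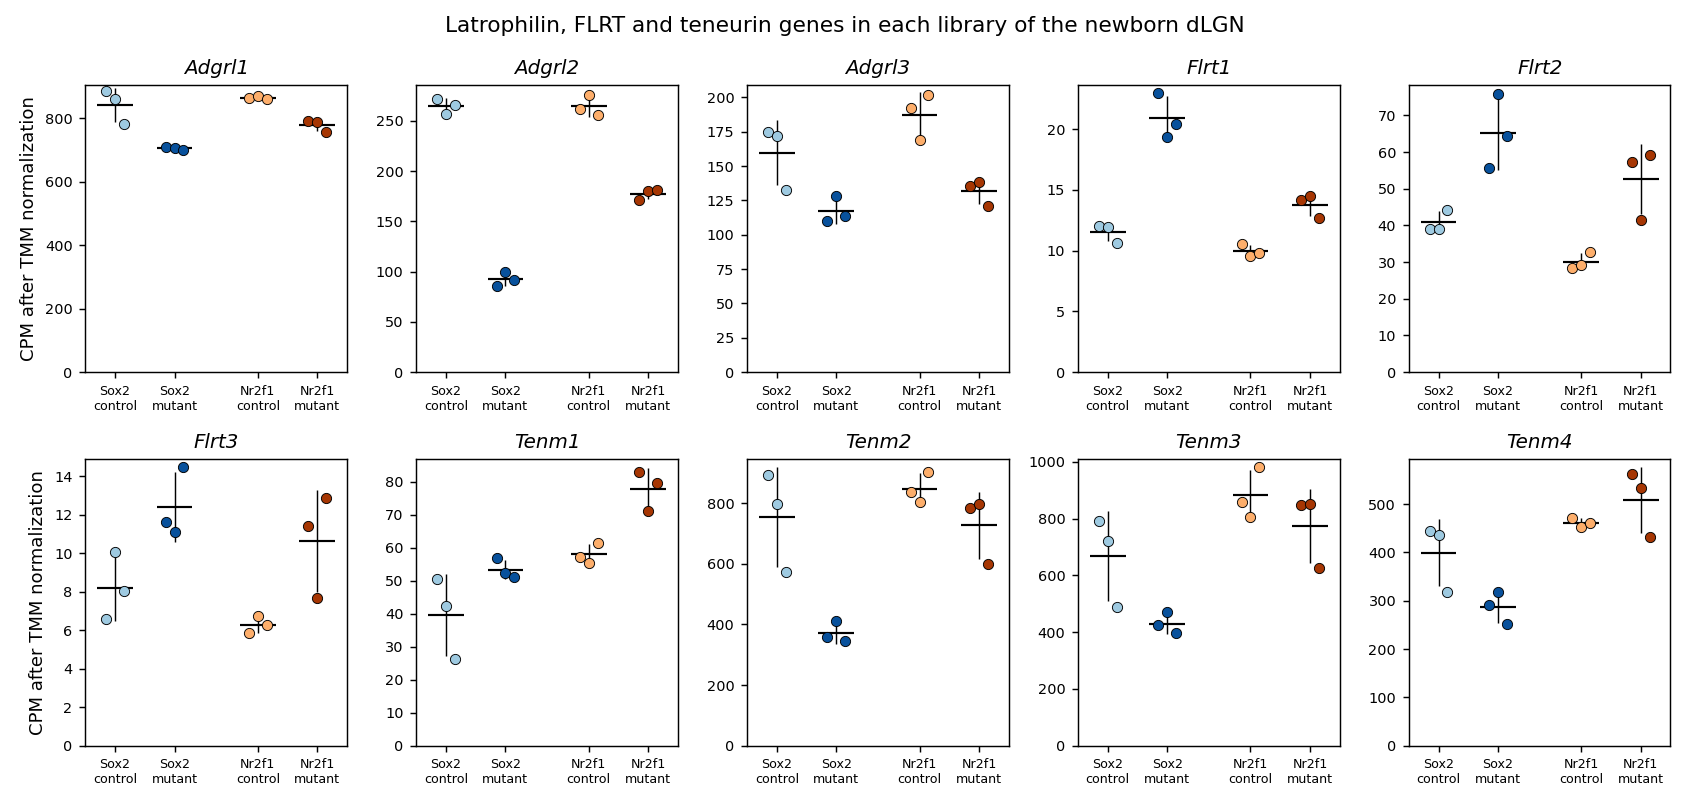
Levels of the 10 genes in the 12 libraries, in CPM after TMM normalization, with each library as a point, the mean of 3 libraries as a horizontal line and the SD as a vertical line. *Adgrl2* falls from a control mean of 265 CPM to 92.4 CPM in *Sox2* mutants and 178 CPM in *Nr2f1* mutants, and *Flrt1*, *Flrt2* and *Flrt3* are higher in the mutants of both lines.

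The FLRTs were higher in mutants. *Flrt1* measured 12.1, 11.9 and 10.6 CPM in *Sox2* controls and 23.0, 19.3 and 20.4 CPM in *Sox2* mutants, and was DEG with a log2 fold change of 0.86 ± 0.10. In *Nr2f1* controls it measured 10.5, 9.53 and 9.79 CPM and in *Nr2f1* mutants 14.2, 14.5 and 12.7 CPM. This difference missed the threshold (0.47 ± 0.10, edgeR FDR 0.0181), although each mutant lay above each control.

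*Flrt2*, which binds both latrophilins and Unc5 receptors, was DEG in both lines. It measured 39.03, 39.1 and 44.3 CPM in *Sox2* controls and 55.6, 75.9 and 64.5 CPM in *Sox2* mutants (0.68 ± 0.11). *Nr2f1* controls had 28.5, 29.1 and 32.8 CPM and mutants 57.3, 41.6 and 59.2 CPM, and it was upregulated (0.81 ± 0.12, edgeR FDR 0.00526). MUT_B was the lowest mutant, and still lay above every control. *Flrt2* was no longer DEG in the *Nr2f1* line when any single library other than MUT_B was left out (edgeR FDR at most 0.034). In *Sox2* mutants the same held for leaving out CTRL_1, CTRL_2 or MUT_4.

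*Flrt3*, a ligand of latrophilins that also acts in guidance of thalamic axons, measured 6.56, 10.04 and 8.05 CPM in *Sox2* controls and 11.6, 11.1 and 14.5 CPM in mutants (0.59 ± 0.17, not DEG), and 5.85, 6.74 and 6.28 CPM in *Nr2f1* controls and 11.4, 7.67 and 12.8 CPM in mutants (0.76 ± 0.18, edgeR FDR 0.0327). Mutants were above controls in all libraries of both lines, and MUT_B again lay nearest to the controls. Without MUT_B, *Flrt3* was DEG (0.94, edgeR FDR 0.00114). Summed over the family, the FLRTs held 57.6 to 63.0 CPM in *Sox2* controls and 90.2 to 106 CPM in mutants, and 44.9 to 48.8 CPM in *Nr2f1* controls and 63.7 to 84.7 CPM in mutants. The make-up of the family overlapped: the shares of *Flrt1*, *Flrt2* and *Flrt3* per kb had common ranges in mutants and controls of both lines.

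Some marker sums of other cell types were, like the FLRTs, higher in mutants. The summed level of astrocyte and radial glia markers was 1767 to 2116 CPM in *Sox2* controls and 2684 to 3080 CPM in mutants, with 5 of 7 markers upregulated, and 1502 to 1579 CPM in *Nr2f1* controls and 1693 to 1879 CPM in mutants, with 1 of 7 upregulated. The microglial sum was 83.8 to 95.3 CPM and 178 to 201 CPM in the *Sox2* line, and 63.8 to 72.2 CPM and 78.5 to 106 CPM in the *Nr2f1* line. Fibroblast markers ranged from 895 to 1796 CPM in *Sox2* controls and from 1375 to 3118 CPM in mutants. In *Nr2f1* controls they ranged from 687 to 1044 CPM. MUT_B, the *Nr2f1* mutant with the lowest *Flrt2* and *Flrt3*, had 994 CPM where MUT_A and MUT_C had 1873 and 2300 CPM. MUT_B had the highest *Flrt1* of those mutants (14.5 CPM). MUT_3, with the highest fibroblast sum of the *Sox2* mutants, had their highest *Flrt2* (75.9 CPM), their lowest *Flrt1* (19.3 CPM) and their lowest *Flrt3* (11.1 CPM). *Flrt2* had the library order of the fibroblast sum within *Nr2f1* controls, *Nr2f1* mutants and *Sox2* mutants. In *Sox2* controls CTRL_3 was highest in both, and CTRL_1 and CTRL_2 were in reverse order. GABAergic neuron markers summed to 74.7 to 119 CPM in *Sox2* controls and 136 to 185 CPM in mutants, and markers of interneurons from the midbrain to 48.9 to 60.2 CPM and 69.1 to 74.0 CPM, with no single marker DEG. Both sums overlapped between the groups of the *Nr2f1* line, where MUT_B was again the lowest mutant. Pallial and hippocampal neuron markers summed to 9.53 to 23.9 CPM in *Sox2* controls and 16.7 to 67.0 CPM in mutants, which overlapped. Within each of these groups, the libraries stood in the same order as for *Flrt1*. In the *Nr2f1* line this sum was 11.5 to 16.1 CPM in controls and 11.1 to 14.6 CPM in mutants. MUT_B had the lowest sum of those mutants and their highest *Flrt1*. No marker of these lists was at 0. Their part in the FLRT values was not tested.

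Among the teneurins, *Tenm2* had the largest decrease in *Sox2* mutants. It measured 892, 797 and 574 CPM in *Sox2* controls and 359, 413 and 346 CPM in mutants, and was DEG with a log2 fold change of -1.02 ± 0.15. It was not DEG without MUT_4. In the *Nr2f1* line it measured 838, 803 and 902 CPM in controls and 783, 796 and 601 CPM in mutants (-0.22 ± 0.10, edgeR FDR 0.208). MUT_A and MUT_B lay just under the lowest control and MUT_C well below.

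*Tenm3* measured 792, 720 and 489 CPM in *Sox2* controls and 424, 470 and 397 CPM in mutants (-0.63 ± 0.15, not DEG). In the *Nr2f1* line the groups overlapped, with 857, 807 and 982 CPM in controls and 849, 850 and 625 CPM in mutants (-0.19 ± 0.12, edgeR FDR 0.368). *Tenm4* measured 443, 436 and 319 CPM in *Sox2* controls and 291, 317 and 251 CPM in mutants (-0.48 ± 0.13, not DEG). It was the only one of the 10 genes with opposite signs in the lines: *Nr2f1* controls had 472, 452 and 461 CPM and mutants 562, 534 and 431 CPM, which overlapped (0.14 ± 0.09, edgeR FDR 0.360).

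*Tenm1* was the teneurin with higher levels in the mutants of both lines. *Nr2f1* controls had 57.1, 55.4 and 61.6 CPM and *Nr2f1* mutants 83.0, 71.0 and 79.6 CPM, an upregulation that passed the test (0.42 ± 0.07, edgeR FDR 0.00737). It was not DEG when any single library other than MUT_B was left out (edgeR FDR at most 0.0425), nor in a fit over all 12 libraries (edgeR FDR 0.135). MUT_A, the library with the highest *Tenm1*, was also the one highest in *Xist*, and without it the log2 fold change was 0.38 (edgeR FDR 0.0425). CTRL_E, at 0.28 CPM of *Xist*, had the highest *Tenm1* of the *Nr2f1* controls. In the *Sox2* line, MUT_1 (0.46 CPM of *Xist*) had the highest *Tenm1* of its group and CTRL_2 (0.19 CPM) the middle value of its group. The part of sex in these values was not tested. *Sox2* controls spread widely, at 50.6, 42.3 and 26.2 CPM, below 56.7, 52.4 and 51.0 CPM in mutants (0.43 ± 0.19, not DEG). CTRL_1 and MUT_4 nearly touched, and without CTRL_3 the log2 fold change was 0.21.

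CTRL_3 had the lowest value of *Tenm1*, *Tenm2*, *Tenm3*, *Tenm4*, *Adgrl1*, *Adgrl3* and *Flrt1* among the *Sox2* controls. It also had the lowest neuronal marker sum of those controls, at 5463 CPM against 6304 and 6403 CPM, and the highest fibroblast sum. Without it, all 6 genes with lower levels in *Sox2* mutants (*Adgrl1*, *Adgrl2*, *Adgrl3*, *Tenm2*, *Tenm3* and *Tenm4*) were downregulated DEG, with log2 fold changes from -1.51 to -0.29. The neuronal sum in *Sox2* mutants was 5371 to 5797 CPM, which overlaps with the controls through CTRL_3. The thalamic glutamatergic sum did not overlap: 3 of its 7 markers were downregulated (*Slc17a6*, *Lef1* and *Rora*, at 51.4, 53.2 and 25.6% of the control mean) and 1 upregulated (*Gbx2*, at 319%). *Tcf7l2*, *Cacna1g* and *Prkcd* were not DEG, at 109, 109 and 107%. The separation of the sum depends on *Rora*, at 298 to 364 CPM in controls and 76.2 to 100 CPM in mutants. In *Nr2f1* mutants, which carry the same Cre, *Rora* ranged from 261 to 363 CPM, and in their controls from 344 to 413 CPM. These ranges overlapped and *Rora* was not DEG there (-0.25 ± 0.11, edgeR FDR 0.204). Any effect of the Cre insert on *Rora* was not tested. In the *Nr2f1* line the thalamic glutamatergic sum overlapped, at 2047 to 2194 CPM in controls and 2056 to 2285 CPM in mutants. The part of these neuronal markers in the decreases was not tested.

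The make-up of the teneurins differed from their levels in *Sox2* controls. Although CTRL_3 had 1409 CPM of teneurins in all where CTRL_1 and CTRL_2 had 2178 and 1996 CPM, the share of *Tenm2* per kb was 44.5, 43.7 and 44.7% in the 3 controls. In *Sox2* mutants it was 35.2, 36.5 and 36.5%, below every control. *Tenm1* made up 2.38 ± 0.253% of the teneurin level per kb in *Sox2* controls and 5.38 ± 0.514% in mutants, and *Tenm4* 15.6 ± 0.904% and 18.2 ± 0.696%. In the *Nr2f1* line these shares moved the same way, from 41.1 ± 0.387% to 38.4 ± 0.486% for *Tenm2*, from 2.91 ± 0.0445% to 4.34 ± 0.838% for *Tenm1* and from 14.8 ± 0.939% to 17.7 ± 0.470% for *Tenm4*, without overlap. *Tenm3* differed between the lines, with shares of 37.8 ± 0.792% and 40.3 ± 0.160% in *Sox2* controls and mutants and of 41.3 ± 1.35% and 39.5 ± 0.938% in *Nr2f1* controls and mutants. With 3 libraries against 3, an exact permutation test of one share cannot give a two-sided p below 0.1.

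**Figure D3:**
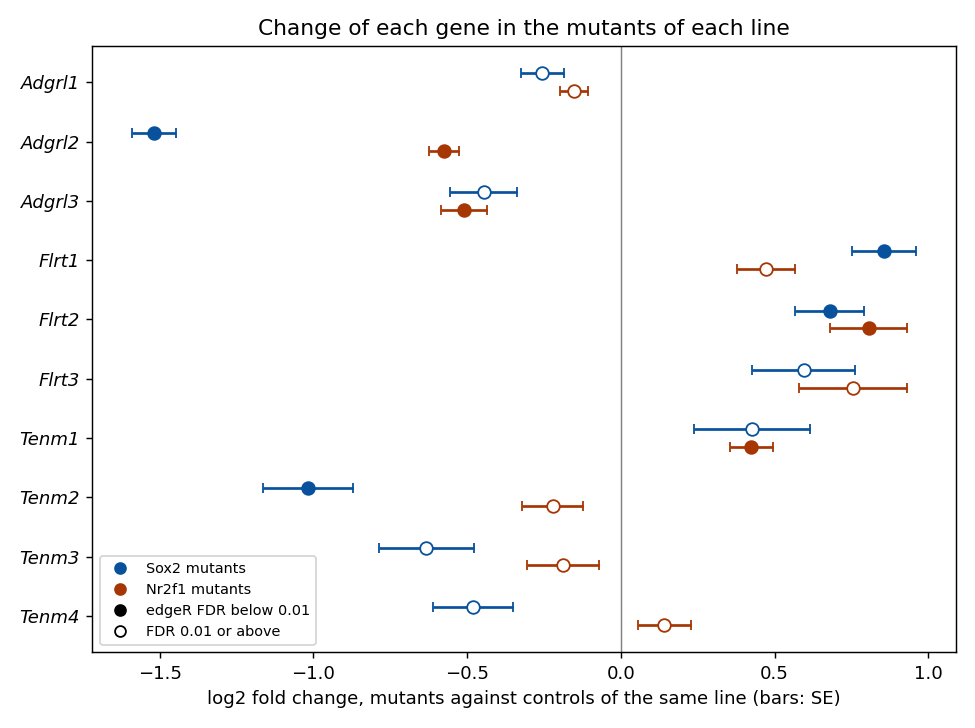
Log2 fold change of each gene in *Sox2* mutants (blue) and *Nr2f1* mutants (red-brown) against the controls of the same line, with SE as bars and filled points for DEG. The FLRTs and *Tenm1* lie right of zero in both lines, *Adgrl1*, *Adgrl2*, *Adgrl3*, *Tenm2* and *Tenm3* left of it, and *Tenm4* changes side, from -0.48 to 0.14.

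Counted over the 10 genes, all of which passed the filter on low counts in both lines, 2 were downregulated (*Adgrl2* and *Tenm2*) and 2 upregulated (*Flrt1* and *Flrt2*) in *Sox2* mutants. Over all 15602 genes tested, 4.19% were downregulated and 3.90% upregulated. Every one of the 10 had separate ranges in mutants and controls, where 37.9% of all genes did. Nothing is read from these counts, since this comparison chose the families.

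In *Nr2f1* mutants, which the choice did not use, 2 of the 10 genes were downregulated (*Adgrl2* and *Adgrl3*) where 1.32% of 15600 genes were, and 2 were upregulated (*Flrt2* and *Tenm1*) where 1.22% were. Libraries did not overlap for 8 of 10, against 28.6% of all genes. The median absolute log2 fold change was 0.45 over these genes and 0.12 over all genes tested, and the median signed change -0.01 and 0.01, as 5 genes were lower and 5 higher. The exceptions to separation were *Tenm3* and *Tenm4*. *Adgrl2* was picked for its decrease in *Sox2* mutants, and 70.7% of all genes changed in the same direction in both lines. The share over all genes is therefore not a matched background for it.

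*Adgrl2* was downregulated in both lines, as were 0.760% of the 15397 genes tested in both, and *Flrt2* was upregulated in both, as were 0.286%. These 2 were the genes DEG in both lines, against 1.17% of all genes. The sign of the change was shared for 9 of 10 genes and for 70.7% of all genes. The lines have separate controls. All these counts include the *Sox2* comparison, where the decrease of *Adgrl2* chose the families, so they are a description.

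For the remaining genes the *Sox2* change minus the *Nr2f1* change was not DEG. It was -0.79 ± 0.20 for *Tenm2*, -0.61 ± 0.17 for *Tenm4*, -0.44 ± 0.22 for *Tenm3* and 0.39 ± 0.13 for *Flrt1*. For *Adgrl1*, *Adgrl3*, *Flrt2*, *Flrt3* and *Tenm1* it lay between -0.15 and 0.07, with SE from 0.07 to 0.27, and was least precise for *Flrt3* and *Tenm1*. Without CTRL_3 of the *Sox2* line, *Tenm2* and *Tenm4* were DEG for this difference too (-0.95 and -0.75).

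Across the 12 libraries, *Adgrl2* and *Flrt1* mirrored each other. Their log2 levels had a Pearson r of -0.977 (Spearman rho -0.895, n = 12), which put *Flrt1* at place 15986 of 15988 genes ordered by r with *Adgrl2*. Within the *Sox2* line r was -0.990 and within the *Nr2f1* line -0.963 (n = 6 each). The libraries share the genotype groups, so these values describe the pattern and were not tested.

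**Figure D4:**
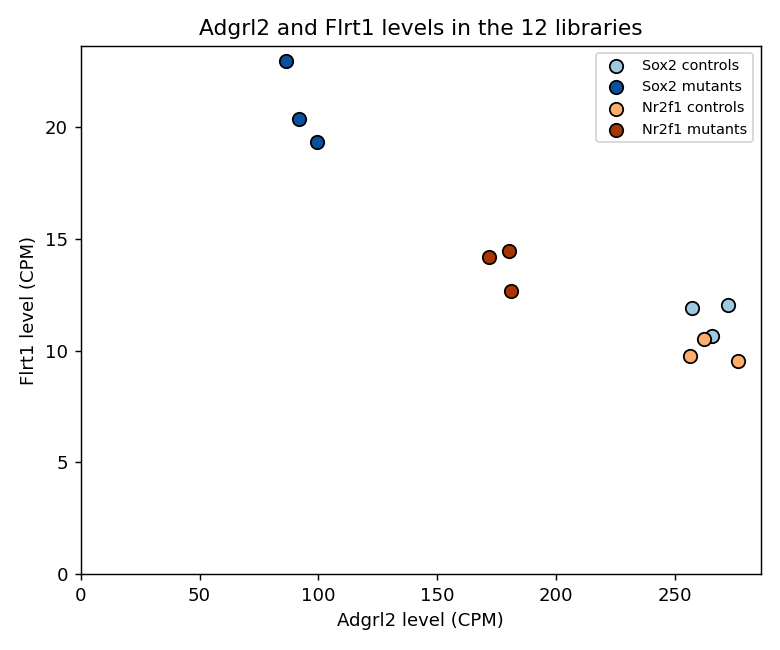
*Flrt1* level against *Adgrl2* level, both in CPM, with each of the 12 libraries as a point coloured by group. Controls of both lines lie at the lower right (256 to 276 CPM of *Adgrl2*), *Nr2f1* mutants in between (172 to 181 CPM) and *Sox2* mutants at the upper left (86.2 to 99.5 CPM).

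Of the other genes in these families, *Adgrl1* (r = 0.93), *Tenm2* (0.89) and *Adgrl3* (0.81) followed *Adgrl2* most closely, then *Tenm3* (0.75) and *Tenm4* (0.65). *Flrt2* (-0.82) and *Flrt3* (-0.77) ran opposite, and *Tenm1* stood at -0.19 over both lines, but at -0.66 within the *Sox2* line and -0.96 within the *Nr2f1* line (n = 6 each). The 5 genes most like *Adgrl2* were *Gm15417* (0.986), *Ptpn22* (0.986), a tyrosine phosphatase, *Nsmf* (0.982), a synapse-to-nucleus messenger, *Sox13* (0.982), a SoxD transcription factor, and *Sgk1* (0.980), a serum- and glucocorticoid-induced kinase. The 3 most opposite were *Kcnab1* (-0.981), a potassium channel subunit, *Alcam* (-0.979), an axonal adhesion molecule, and *Flrt1*. *Sox13* ran from 144 to 148 CPM in *Sox2* controls and 50.9 to 56.9 CPM in mutants, and from 181 to 190 CPM in *Nr2f1* controls and 107 to 117 CPM in mutants. This was the same order of groups as for *Adgrl2*.

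Partners of these receptors were also examined, as a list of 18 genes for extracellular partners and co-receptors, all tested. In *Sox2* mutants 1 was downregulated and 5 upregulated, where 4.19% and 3.90% of all genes were, and the median log2 fold change was 0.36 where that of all genes was 0.00. In *Nr2f1* mutants 1 was downregulated and 1 upregulated, where 1.32% and 1.22% of all genes were, with medians of 0.11 and 0.01. *Nrxn3*, a neurexin and presynaptic organizer whose family binds latrophilins, was downregulated in both. It measured 151, 132 and 150 CPM in *Nr2f1* controls and 102, 108 and 101 CPM in mutants (-0.47 ± 0.06, edgeR FDR 0.00214), and 133 to 153 CPM in *Sox2* controls and 84.1 to 95.5 CPM in mutants (-0.69 ± 0.08).

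Among the listed Unc5, Fgfr, Robo and Dcc receptors, every DEG in *Sox2* mutants was upregulated, and some others were lower without being DEG. Of the 4 Unc5 receptors, *Unc5d* alone was DEG, and *Unc5a* (-0.10 ± 0.15), *Unc5b* (0.32 ± 0.13) and *Unc5c* (-0.48 ± 0.13) were not. *Unc5d*, the repulsive receptor bound by FLRT2, ranged from 6.15 to 10.8 CPM in controls and from 17.1 to 19.0 CPM in mutants (0.99 ± 0.18), and *Dcc*, the netrin receptor, from 17.6 to 24.2 CPM and from 34.9 to 40.9 CPM (0.82 ± 0.12). *Fgfr3* (0.63 ± 0.08) and *Fgfr1* (0.48 ± 0.07) were upregulated too. Both are expressed in astrocytes and radial glia, whose markers were higher as given above, and the part of these cells was not tested. The remaining upregulated partner was *Robo1*, a Slit receptor, named after its values were seen (0.41 ± 0.07). *Rnd1*, a small GTPase that FLRT proteins can recruit, was the upregulated partner in *Nr2f1* mutants, with 7.92, 6.86 and 7.35 CPM in controls and 13.7, 12.8 and 13.1 CPM in mutants (0.84 ± 0.10, edgeR FDR 0.00123).

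Inside the cell, 18 genes for G proteins, arrestins and scaffolds of these receptors gave 2 downregulated and 1 upregulated in *Sox2* mutants (4.19% and 3.90% of all genes) and 1 of each in *Nr2f1* mutants (1.32% and 1.22%). The medians were -0.06 and -0.01, where those of all genes were 0.00 and 0.01. The single upregulated gene in the *Sox2* line is near the share of all genes. *Shank2*, a postsynaptic scaffold of the family that binds the tail of latrophilins, ranged from 185 to 224 CPM in *Sox2* controls and from 111 to 133 CPM in mutants (-0.73 ± 0.09). *Sorbs2*, an adaptor of the actin cytoskeleton, was upregulated in *Nr2f1* mutants (0.42 ± 0.07, edgeR FDR 0.00555), and the G protein subunit *Gnai2* in *Sox2* mutants (0.47 ± 0.09).

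Among 16 further adhesion G protein-coupled receptors, none was downregulated and 3 were upregulated in each line, where 3.90% (*Sox2* line) and 1.22% (*Nr2f1* line) of all genes were upregulated. The median log2 fold changes were 0.24 and 0.18, and those of all genes 0.00 and 0.01. *Adgrg1* was upregulated in both: it measured 168, 160 and 154 CPM in *Nr2f1* controls and 242, 235 and 234 CPM in mutants (0.57 ± 0.05, edgeR FDR 2.51e-04), and 180 to 185 CPM in *Sox2* controls and 245 to 277 CPM in mutants (0.51 ± 0.07). *Celsr1* (0.90 ± 0.09, edgeR FDR 5.67e-04) and *Adgra1* (0.73 ± 0.11, edgeR FDR 0.00543) were the others in *Nr2f1* mutants, and *Adgrb2* (0.37 ± 0.06) and *Adgrb1* (0.36 ± 0.07) in *Sox2* mutants.

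Among 23 further leucine-rich repeat adhesion genes, 1 was downregulated and 3 upregulated in *Sox2* mutants (4.19% and 3.90% of all genes) and 1 of each in *Nr2f1* mutants (1.32% and 1.22%), with medians of -0.18 and -0.02. The single downregulated gene in the *Sox2* line is about the share of all genes. *Lingo1*, which restrains axon growth and myelination, was downregulated in both lines (-0.62 ± 0.08 in *Sox2* mutants, -0.42 ± 0.07 with an edgeR FDR of 0.00729 in *Nr2f1* mutants). *Elfn1*, a postsynaptic organizer of interneuron synapses, was upregulated in both (1.10 ± 0.19, and 0.88 ± 0.13 with an edgeR FDR of 0.00367). *Lrrn3* (0.72 ± 0.08) and *Islr2* (0.99 ± 0.18) were upregulated in *Sox2* mutants.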

How the data were processed

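Libraries of dissected dLGN RNA were prepared by the authors with a Nugen Universal Plus mRNA-seq kit, aligned with STAR to mouse RefSeq transcripts (mm10 in the submitters' processing notes) and deposited as RSEM estimated counts per gene. They were rounded to whole numbers here. Each line was analysed against its own controls in R 4.3.3 with edgeR 4.0.16: filterByExpr (minimum count 10, minimum total 15), TMM and the quasi-likelihood F-test with Benjamini-Hochberg adjustment (FDR). Genes with FDR below 0.01 were called DEG. The difference between the lines was the interaction over all 12 libraries. SE belongs to the fitted log2 fold change. The families and gene lists were chosen with earlier results of these data known. Named list genes were the DEG without overlap between libraries, at most 4 per line and direction by p. Levels per kb used the longest RefSeq transcript. Correlations used log2(CPM + 1). The fits were tested on simulated data. Column names gave the group of a library but not its sample number. Libraries were separate pools of 3 animals. Kit strandedness and counting by strand are not given in the sources used here, so reads of antisense genes cannot be told apart. One gene of the lists that the rule would name is not reported here.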

Additional observations from a re-analysis of the deposited data

Results flagged for a closer look

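The change of *Adgrl2* differed between the lines: the *Sox2* change minus the *Nr2f1* change was -0.94 ± 0.08 (SE) on the log2 scale, and the interaction term of the edgeR fit over 12 libraries passed the threshold. It did so in all 19 alternative fits, with values from -0.98 to -0.89. The gene was chosen by its decrease in *Sox2* mutants, which is one side of this difference, so the value is a description. In *Nr2f1* mutants, which the choice did not use, *Adgrl2* was downregulated in all 14 alternative fits, by -0.60 to -0.54.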

How the results depend on the processing

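In *Sox2* mutants, 2 of the 10 genes were downregulated and 2 upregulated. DESeq2 and an FDR below 0.05 each gave 6 and 3, edgeR's likelihood ratio test 5 and 3, and one fit over all 12 libraries 4 downregulated. Leaving out each library gave 1 to 6 downregulated (6 without CTRL_3, 1 without MUT_4) and 1 to 2 upregulated (1 without CTRL_1, CTRL_2 or MUT_4). In *Nr2f1* mutants, DESeq2, the likelihood ratio test and an FDR below 0.05 each gave 4 upregulated genes in place of 2. Leaving out each library gave 1 to 2 downregulated (1 without CTRL_B, CTRL_E, MUT_A or MUT_C) and 0 to 3 upregulated (3 without MUT_B, 0 without any other). For the difference between the lines the same 3 settings gave 2 genes lower in *Sox2* mutants in place of 1, and leaving out a library gave 1 to 3 (3 without CTRL_3). The other filters and normalizations kept these counts within 1.5 times. The cause of these shifts was not tested. In the *Sox2* line, column numbers 1 and 3 occur in both groups, and samples with the same number correlated at 0.227 and 0.223 in their deviations. CTRL_2 correlated best with MUT_1, and with only 2 such pairs they share only a number. With the numbers as a replicate block, 2 genes were downregulated and 4 upregulated. CTRL_2 and MUT_4 were alone in their blocks in that fit, so its genotype effect rested on the pairs numbered 1 and 3 only. No paired analysis was possible in the *Nr2f1* line because its columns share only the letter B. Signs that turned belonged to differences near 0 that never passed: *Flrt3* 0.027 without CTRL_2 and 0.014 without MUT_C (range -0.33 to 0.027), *Adgrl3* -0.041 without CTRL_3 (range -0.041 to 0.15), and *Tenm1* -0.21 without CTRL_3, -0.034 without MUT_1, -0.028 without CTRL_E and -0.040 without MUT_B (range -0.21 to 0.22). The r of *Tenm4* with *Adgrl2* was -0.55 within the *Nr2f1* line. The likeness order also moved with the measure: 12 of the 50 genes with the highest Pearson r were among the 50 highest by Spearman rho, and 2 within the *Nr2f1* line. With the shortest transcript, *Tenm2* and *Tenm3*, and *Flrt1* and *Flrt3*, exchanged places in *Nr2f1* controls. By SE, the fold changes of *Flrt3* in both lines and of *Tenm1* in *Sox2* mutants were the least precise.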
